A study of Mus musculus with 6 samples.

Results

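The nuclear factor NRF2 is encoded by Nfe2l2 and is known to regulate antioxidant enzymes. Both were followed in cells sorted as vascular endothelial cells (VECs) from mouse retinas with and without endothelial Bmal1. The set holds 10 genes, taken by name from the 55487 genes in the deposited table: the regulators Nfe2l2 and Keap1, the NRF2 target enzymes Hmox1, Nqo1, Gclc, Gclm and Txnrd1, and the superoxide and peroxide enzymes Sod1, Sod2 and Cat. All 10 had at least 10 reads in at least 3 libraries and were tested, among 20459 genes in all. Control animals were tdTomato FL/+;Pdgf-icreER and Bmal1;CKO animals were Bmal1 FL/FL;tdTomato FL/+;Pdgf-icreER, with 3 libraries in each group and 1 library per sample. Both groups carried the Cre transgene and the reporter, and both received tamoxifen from postnatal day 0.5 to 2.5. At postnatal day 7.5, cells positive for GFP, which comes from the Pdgf-icreER transgene, and for tdTomato, which marks recombination by Cre, were sorted from dissociated retinas. Levels are normalized counts, the reads on a gene divided by the DESeq2 size factor of its library. Libraries had 71145068 to 104017800 reads on genes and are numbered as in the table, where 1 to 3 are control and 4 to 6 are Bmal1;CKO.

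NRF2 is a transcription factor that KEAP1 holds in the cytoplasm and delivers to a ubiquitin ligase for degradation. When electrophiles or oxidants modify KEAP1, NRF2 accumulates, enters the nucleus, pairs with a small MAF protein and binds antioxidant response elements (AREs) of genes for glutathione synthesis, quinone and haem metabolism and the thioredoxin system. BMAL1 is a clock transcription factor that binds E-boxes together with CLOCK, and endothelial cells, which face the oxygen of the blood, use these enzymes to clear superoxide and peroxides.

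Promoter sequences show where the motifs of both factors lie in these genes. RefSeq promoters of GRCm38.p6, each from 250 bases before to 50 bases after a start site, were matched for 8 of the 10 genes and gave 10 windows, since Txnrd1 has 3 start sites. Hmox1 and Gclc had no entry. The core of the ARE, spelled TGACNNNGC and searched on both strands, was found in 4 of the 10 windows, against 12.4% of all 32851 promoters of the same length. The E-box CACGTG, which reads the same on both strands and does not overlap the ARE core, was found in 0 of the 10 windows, against 7.15% of all promoters. The windows of Gclm and Txnrd1 are printed because both are NRF2 target enzymes with an ARE core in the window, and because their transcripts had the lowest fold changes among the members. The capitals mark the ARE core, here on the opposite strand, and the sequences run 5′ to 3′ on the strand of the gene. The Gclm window is chr3:122245307-122245606 on the forward strand, and the Txnrd1 window is the start site with an ARE core, chr10:82858956-82859255 on the forward strand.
Gclm: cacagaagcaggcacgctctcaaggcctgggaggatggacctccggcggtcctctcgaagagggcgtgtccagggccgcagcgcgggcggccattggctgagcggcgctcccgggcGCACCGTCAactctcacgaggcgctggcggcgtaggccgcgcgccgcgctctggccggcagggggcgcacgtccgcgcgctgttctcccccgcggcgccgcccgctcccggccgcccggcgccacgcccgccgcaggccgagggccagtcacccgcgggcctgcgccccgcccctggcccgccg
Txnrd1: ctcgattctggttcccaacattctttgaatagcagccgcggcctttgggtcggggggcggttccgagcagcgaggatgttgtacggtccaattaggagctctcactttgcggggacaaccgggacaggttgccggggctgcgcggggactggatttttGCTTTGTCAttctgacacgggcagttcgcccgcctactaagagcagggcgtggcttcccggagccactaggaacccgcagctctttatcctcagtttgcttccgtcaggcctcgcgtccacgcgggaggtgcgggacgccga
The core begins at position -134 from the start site in Gclm, where it reads GCACCGTCA, and at -92 in Txnrd1, where it reads GCTTTGTCA. The other windows with a core were those of Nfe2l2 itself, with TGACTCCGC at -240, and of Sod1, with GCGTGGTCA at -56. The windows of Keap1, Nqo1, Sod2 and Cat and of the other Txnrd1 start sites held no such letters. Among genes with a core, log2 fold changes of Bmal1;CKO over control were -0.86 (Txnrd1), -0.71 (Gclm), -0.30 (Sod1) and 0.13 (Nfe2l2). Among those without, they were -0.55 (Cat), -0.05 (Sod2), 0.36 (Keap1) and 3.07 (Nqo1). None of these genes passed the test described below, and a relation of core and fold change was not tested. A match describes a sequence and not a site bound in these cells.

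Loss of Bmal1 in the sorted cells was followed first through the targeted gene. Bmal1, listed as Arntl, had 1700, 3489 and 2928 normalized counts in control libraries 1, 2 and 3 and 1779, 2747 and 2415 in Bmal1;CKO libraries 4, 5 and 6. The groups overlapped (log2 fold change -0.19, SE 0.36, limma-trend adjusted p = 0.924). A count over the whole gene does not single out the floxed exon. The paper measured Bmal1 transcripts by droplet digital PCR in sorted endothelial cells of these genotypes and reports significantly fewer in the mutant. All 14 endothelial markers checked had at least 10 reads in every library, and their sum was 215352 to 397937 normalized counts in control and 129690 to 276187 in Bmal1;CKO, with 0 of 14 higher on average in Bmal1;CKO. All 10 markers of microglia and macrophages were also present in every library. Their sum was 1457310 to 4313190 in control and 2111900 to 4207930 in Bmal1;CKO, and 9 of the 10 were higher on average in Bmal1;CKO. The summed rod markers were 595924 to 701541 in control and 442638 to 729306 in Bmal1;CKO. Those of Müller glia were 4017950 to 16621700 in control and 7352980 to 13533000 in Bmal1;CKO. In every library the sums of microglia and macrophages, rods and Müller glia were above the endothelial sum. Those of astrocytes, pericytes, erythroid cells and of amacrine and ganglion cells were below it. The order for Müller glia rested on the sum. Their median marker was below the endothelial one in control libraries 1 to 3 (3724, 5243 and 5533 against 9492, 7458 and 8773). It was also below in Bmal1;CKO library 6 (6533 against 9474), and above in libraries 4 and 5 (8942 and 7742 against 5380 and 3542). The medians of microglia and macrophages and of rods were above the endothelial median in every library. Such sums and medians depend on the genes chosen and are not shares of cells. Genes that mark other cells were thus read in every library, and the levels below are those of the sorted population. In such bulk libraries fewer cells of a type and less RNA per cell cannot be told apart.

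Among the 10 genes, 0 passed an adjusted p of 0.05 in limma-trend on log2(normalized count + 1), as did 0 of all 20459 genes (0%), of which 1007 had an unadjusted p under 0.05. No member was among those 1007. The count at an unadjusted p under 0.05 rested on single libraries. It ran from 444 of all genes without Bmal1;CKO library 5 to 2444 without control library 3, and from 0 to 4 of the members. The 4 were Hmox1, Nqo1, Gclm and Cat without control library 2, where 941 of all 20459 genes were under 0.05. There the log2 fold change of Bmal1;CKO over control was 4.32 for Nqo1, -1.03 for Hmox1, -0.92 for Gclm and -0.76 for Cat. The adjusted p was 0.844 for each in limma-trend. On the recovered reads, a quasi-likelihood fit in edgeR with TMM scaling called 0 genes as well, with 776 at an unadjusted p under 0.05, whereas DESeq2's Wald test called 67 genes, of which 0 were members. The log2 fold change of Bmal1;CKO over control, here called LFC, was above 0 for 3 members and below 0 for 7, with a median of -0.27. Over all genes tested the median was 0.11, and 56.6% were above 0. That median rested on control library 1 and on low counts. It was 0.002 without control library 1, with 50.1% above 0, and -0.006 when 10 reads in every library were required. In edgeR with TMM scaling the median of all genes was -0.04, and the directions of the 10 members were the same. The regulators and Nqo1 had fold changes above 0, and the other NRF2 targets and the superoxide and peroxide enzymes had fold changes below 0. All 3 Bmal1;CKO libraries lay above all 3 controls for 1 member, Nqo1, against 6.62% of all genes, and below all 3 controls for 1 member, Gclm, against 4.54%. These shares of all genes are the background for any separation of the groups.

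**Figure D1:**
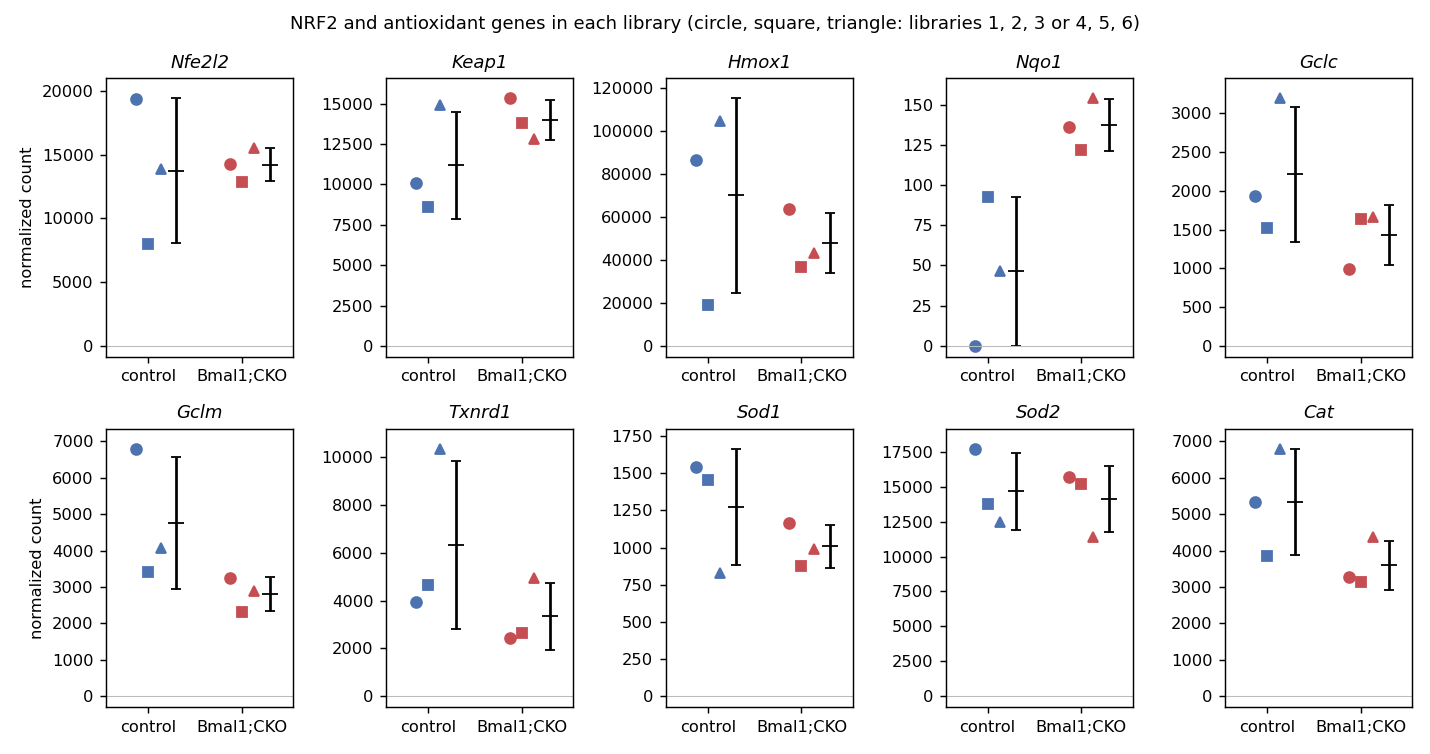
Normalized counts of the 10 genes in each library (points), with the mean and SD of each group of 3 libraries (black) on a linear axis that includes 0. Only Nqo1 (all Bmal1;CKO libraries above control) and Gclm (all below) have groups that do not overlap, and among genes with reads in every library the controls spread most for Hmox1.

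Nfe2l2 (ENSMUSG00000015839; reverse strand of chromosome 2, 75675513 to 75704641 in GRCm38) encodes NRF2. Its transcript had 19352, 8019 and 13878 normalized counts in control libraries 1 to 3 and 14283, 12865 and 15481 in Bmal1;CKO libraries 4 to 6. The Bmal1;CKO libraries lay within the range of the controls, and both the highest and the lowest level were controls. Means were 13749 ± 5668 (SD, n = 3) for control against 14209 ± 1309 (SD, n = 3) for Bmal1;CKO. The LFC came to 0.13 (95% confidence interval -0.66 to 0.93, limma-trend adjusted p = 0.942), and it turned to -0.21 without control library 2.

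Keap1 (ENSMUSG00000003308; reverse strand of chromosome 9, 21229730 to 21239361) encodes the sensor that binds NRF2 and marks it for degradation. Its levels were 10076, 8584 and 14908 normalized counts in control and 15343, 13829 and 12840 in Bmal1;CKO. Control libraries 1 and 2 were the lowest of all 6, but control library 3 was above 2 of the Bmal1;CKO libraries. Between the groups the LFC was 0.36 (95% confidence interval -0.27 to 0.99, limma-trend adjusted p = 0.883) and stayed between 0.19 and 0.59 when each library was left out in turn. An antisense gene, Gm16754, covers 510 exonic bases of Keap1, with a mean of 112 normalized counts against 12597 for Keap1.

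The balance of sensor and factor transcripts was compared within libraries, where the scaling of a library cancels. Keap1 counts were 0.521, 1.07 and 1.07 times those of Nfe2l2 in control libraries 1 to 3 and 1.07, 1.07 and 0.829 times in Bmal1;CKO libraries 4 to 6. The same ratio of counts, 1.07, was thus found in 4 of the libraries, and control library 1 had the lowest. These ratios take counts without regard to length. Per kilobase of exons Keap1 was below Nfe2l2 in all 6 libraries, with means of 2684 and 3683. The mean log2 ratio was -0.25 ± 0.60 (SD, n = 3) for control against -0.02 ± 0.22 (SD, n = 3) for Bmal1;CKO, with an exact permutation p of 0.5 (two-sided, adjusted p = 0.75 over 3 ratios). With 3 libraries against 3 this test can give no p below 0.1.

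Hmox1 (ENSMUSG00000005413; forward strand of chromosome 8, 75093621 to 75100589) encodes haem oxygenase 1, which cleaves haem to biliverdin, iron and carbon monoxide. It had 86542, 18892 and 104745 normalized counts in control libraries 1, 2 and 3. In Bmal1;CKO libraries 4, 5 and 6 it had 63787, 36841 and 43332. The Bmal1;CKO libraries fell between the lowest control and the other controls. The LFC of -0.25 had a 95% confidence interval of -1.73 to 1.23 (limma-trend adjusted p = 0.942), the widest interval of any member after Nqo1. Its sign rested on single libraries, with 0.07 without control library 1, 0.21 without control library 3 and -1.03 without control library 2. Macrophages are a known source of Hmox1 transcripts, and the summed microglia and macrophage markers, 4313190, 1457310 and 1764400 in the controls and 4207930, 2849810 and 2111900 in Bmal1;CKO libraries 4 to 6, were also lowest in control library 2. Control library 3, with the highest Hmox1 level of all 6, had a marker sum below those of every Bmal1;CKO library. The part of macrophages in the Hmox1 level was not tested.

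Nqo1 (ENSMUSG00000003849; reverse strand of chromosome 8, 107388225 to 107403206) encodes a quinone reductase and is a standard reporter of NRF2 activity. It was the least abundant member, with 0, 92.8 and 46.4 normalized counts in control and 136, 122 and 154 in Bmal1;CKO. Control library 1 had 0 reads, which allows up to 3.69 normalized counts, and the Bmal1;CKO libraries lay within a narrow range above all controls. Means were 46.4 ± 46.4 (SD, n = 3) and 137 ± 16.2 (SD, n = 3). The LFC of 3.07 (SE 1.70, unadjusted p = 0.111, limma-trend adjusted p = 0.883) depended on how the 0 was treated. It was 1.92 with a pseudocount of 10, 1.56 in edgeR with TMM scaling and 1.05 without control library 1, above 0 in each.

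Gclc and Gclm encode the catalytic and the modifier subunit of glutamate-cysteine ligase, the first enzyme of glutathione synthesis. Gclc (ENSMUSG00000032350; forward strand of chromosome 9, 77754535 to 77794485) had 1928, 1514 and 3194 normalized counts in control and 987, 1640 and 1667 in Bmal1;CKO. Only Bmal1;CKO library 4 was below every control, and the LFC was -0.60 (95% confidence interval -1.51 to 0.32, limma-trend adjusted p = 0.883). That value was -0.30 without control library 3, -0.35 without Bmal1;CKO library 4 and, at the other end, -0.83 without control library 2. Gclm (ENSMUSG00000028124; forward strand of chromosome 3, 122245557 to 122270732) had 6800, 3405 and 4068 in control and 3240, 2307 and 2883 in Bmal1;CKO. All 3 Bmal1;CKO libraries were below the lowest control, and library 4 was close to it. The mean was 4758 ± 1800 (SD, n = 3) for control against 2810 ± 471 (SD, n = 3) for Bmal1;CKO. The LFC of Gclm was -0.71 (95% confidence interval -1.47 to 0.05), with an unadjusted p of 0.0643, the smallest of any member, and a limma-trend adjusted p of 0.883. The unadjusted p was 0.0481 in edgeR with TMM scaling (adjusted p = 1.00) and 0.0460 in DESeq2 (adjusted p = 0.812). With any 1 library omitted the LFC lay from -0.92 to -0.42, all below 0, with the value nearest to 0 without control library 1. An antisense transcript, Gm17494, overlaps 296 exonic bases of Gclm, with a mean of 113 normalized counts against 3784.

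Both subunits of the ligase had lower means in Bmal1;CKO, and their ratio was variable. Gclm counts were 3.53, 2.25 and 1.27 times those of Gclc in control and 3.28, 1.41 and 1.73 times in Bmal1;CKO. These ratios also take counts without regard to length, and the groups covered nearly the same range. The log2 ratio differed by -0.11 (exact permutation p = 0.9, adjusted p = 0.9), a difference smaller than its SD of 0.74 in control and 0.64 in Bmal1;CKO (n = 3 each).

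Txnrd1 (ENSMUSG00000020250; forward strand of chromosome 10, 82833951 to 82897712) encodes the cytosolic thioredoxin reductase, which returns thioredoxin to its reduced form. It had 3926, 4670 and 10368 normalized counts in control and 2453, 2640 and 4957 in Bmal1;CKO. Control library 3 stood well above the others, and within the Bmal1;CKO group library 6 was the highest and exceeded 2 of the controls. The LFC of -0.86 was the lowest of the members (95% confidence interval -1.89 to 0.18, unadjusted p = 0.0933, limma-trend adjusted p = 0.883). It was -0.43 without control library 3 and -1.18 without Bmal1;CKO library 6.

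Sod1 and Sod2 encode the cytosolic copper-zinc and the mitochondrial manganese superoxide dismutase, which turn superoxide into hydrogen peroxide. Sod2 (ENSMUSG00000006818; forward strand of chromosome 17, 13006846 to 13040063) was the steadiest member, with 17735, 13801 and 12455 normalized counts in control and 15724, 15231 and 11421 in Bmal1;CKO. The groups covered nearly the same range, and the LFC was -0.05 (95% confidence interval -0.65 to 0.54, limma-trend adjusted p = 0.974). Sod1 (ENSMUSG00000022982; forward strand of chromosome 16, 90220754 to 90226329) had 1545, 1453 and 827 in control and 1163, 874 and 988 in Bmal1;CKO. Control library 3 was the lowest of the 6 and the other controls were the highest. Its LFC was -0.30 (95% confidence interval -1.17 to 0.58, limma-trend adjusted p = 0.897). It was nearest to 0 without control library 1, at -0.13, followed by -0.17 without control library 2 and -0.20 without Bmal1;CKO library 5, and it was -0.58 without control library 3. Sod2 counts were 9.49 to 15.0 times those of Sod1 in control and 11.6 to 17.4 times in Bmal1;CKO, and the log2 ratio differed by 0.24 (exact permutation p = 0.4, adjusted p = 0.75). This ratio takes counts without regard to length and the Sod1 row alone. The ratio with the copy described next added was not tested.

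The count of Sod1 has to be read beside that of a processed pseudogene, Gm8566, on the forward strand of chromosome 6 from 67205619 to 67206083. A processed pseudogene is an intronless copy of a spliced transcript. Gm8566 is as long as the coding sequence of Sod1, 465 bases, and differs from it at 10 of them (97.8% identity), with a longest identical stretch of 122 bases. The row of Gm8566 had 24128, 13762 and 7157 normalized counts in control and 13485, 7729 and 7806 in Bmal1;CKO, more than the row of Sod1 in every library. The Sod1 row made up 6.02% to 11.2% of the sum of both rows. The sum was 25673, 15215 and 7984 in control and 14648, 8603 and 8794 in Bmal1;CKO. The groups overlapped in the sum as they did in Sod1 alone, and its LFC was -0.50 (SE 0.45, limma-trend adjusted p = 0.883). How reads of the gene and its copy were divided by the alignment was not tested. Of the other members, 0 had a pseudogene copy by the same criteria.

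**Figure D2:**
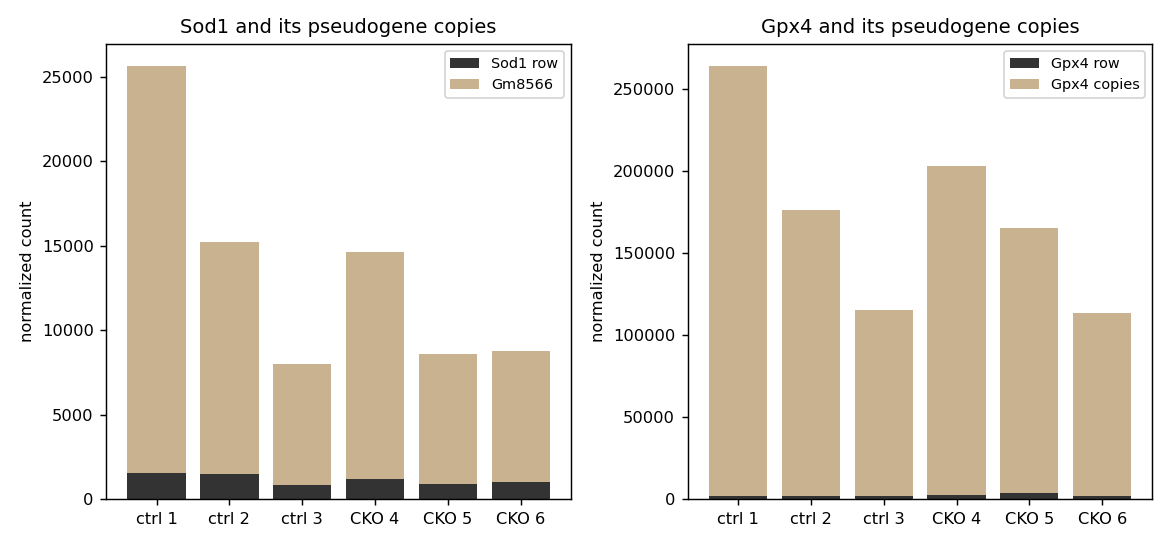
Normalized counts per library of Sod1 (left) and Gpx4 (right), stacked with those of their annotated pseudogene copies, for 3 control and 3 Bmal1;CKO libraries. The row named for the gene is a small part of the sum in every library, at most 11.2% for Sod1 and 2.08% for Gpx4.

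Cat (ENSMUSG00000027187; reverse strand of chromosome 2, 103453849 to 103485160) encodes catalase, the peroxisomal enzyme that splits hydrogen peroxide. It had 5345, 3863 and 6800 normalized counts in control and 3281, 3149 and 4369 in Bmal1;CKO. Bmal1;CKO libraries 4 and 5 were below every control, and library 6 was above control library 2. Means were 5336 ± 1468 (SD, n = 3) and 3600 ± 669 (SD, n = 3), with an LFC of -0.55 (95% confidence interval -1.24 to 0.14, unadjusted p = 0.105, limma-trend adjusted p = 0.883). When 1 library was left out, the value ran from -0.76 to -0.35. Gclc, Gclm, Txnrd1 and Cat thus had LFCs between -0.86 and -0.55 and a direction that no alternative turned, while none passed the test.

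**Figure D3:**
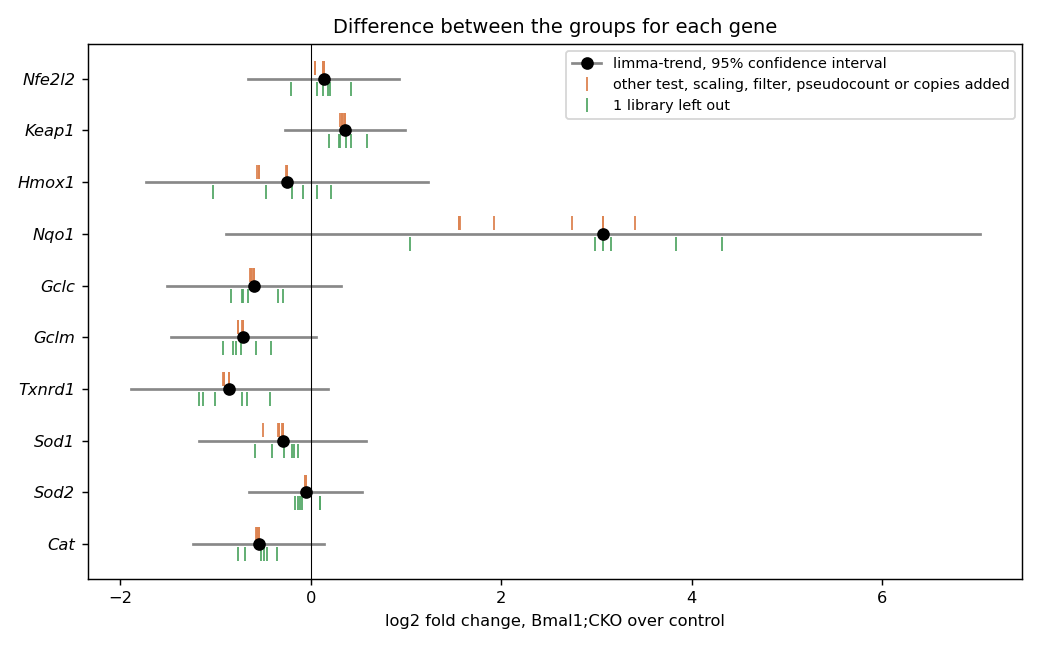
Log2 fold change of Bmal1;CKO over control for each gene by limma-trend (black point) with its 95% confidence interval (grey line), other tests and settings (orange) and values with 1 library left out (green). Every interval includes 0, and values on both sides of 0 occur for Nfe2l2, Hmox1 and Sod2.

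Levels were compared between genes as normalized counts per kilobase of exons, with no correction for reads that cross exon junctions. Hmox1 was the highest, with a mean of 33708 over the 6 libraries and a range of 10789 to 59820, and was above every other member in all 6. Nfe2l2 followed with 3683 (2112 to 5098) and Keap1 with 2684 (1829 to 3269), each above the next gene in all 6 libraries. Cat had 1710 and Sod2 1438, an order found in 4 of 6 libraries, so these neighbours did not differ beyond their spread. Txnrd1 had 682, Gclm 601 and Gclc 484 per kilobase. Txnrd1 was above Gclm in 4 of 6 libraries, Gclm above Gclc in 4 of 6 and Gclc above Sod1 in 5 of 6. Sod1 had 288 and Nqo1 59.2, the lowest in every library.

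The place of Sod1 in this order rested on the length used and on its copy. The exons of Sod1 add up to 3.97 kilobases because the annotation includes a form with retained introns, whereas its principal transcript has 0.641 kilobases. Per kilobase of principal transcript the Sod1 level was 1781, the fifth of the 10, and with Gm8566 added it was 21039, second to Hmox1 with 37618. On that length Sod2 had 2456 and Cat 1710, in the reverse order. The principal transcript length and the sum with the copy were added after the data were seen.

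**Figure D4:**
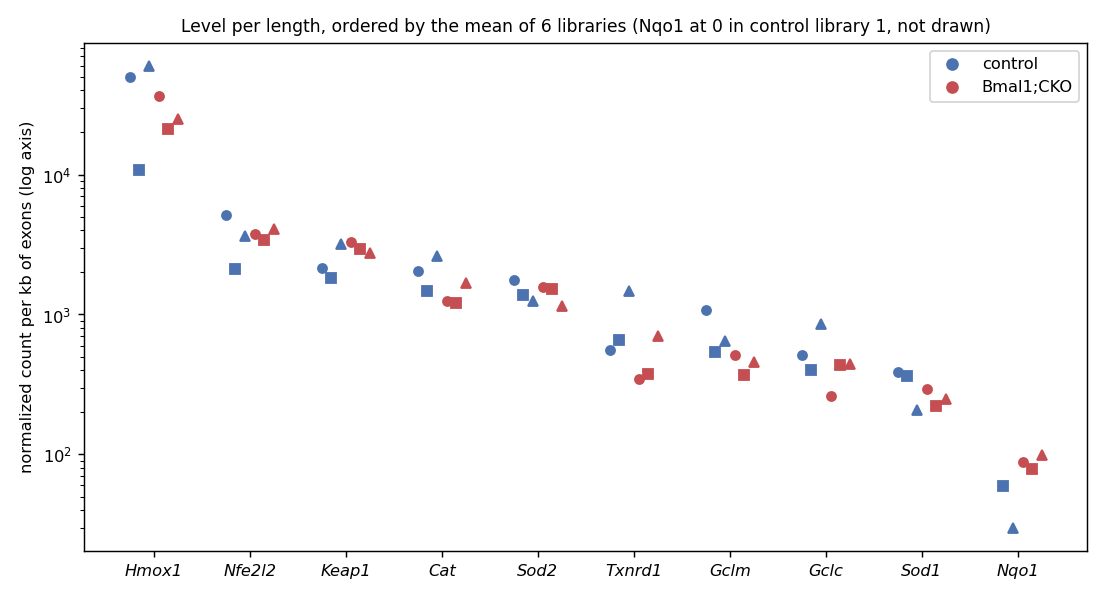
Normalized counts per kilobase of exons on a log axis for the 10 genes in 3 control (blue) and 3 Bmal1;CKO (red) libraries, in the order of their means. Hmox1 lies above all others in every library, the levels of Txnrd1, Gclm and Gclc overlap, and the 0 of Nqo1 in control library 1 cannot be drawn.

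The genes most like Nfe2l2 and Hmox1 across the 6 libraries were named as a description, by the root mean square difference of log2 profiles centred on their means, among 15609 genes. For Nfe2l2 these were Pisd with a difference of 0.04, then Igf2bp3 (0.07), Mknk1 (0.07), Itpkc (0.08) and Rxrb (0.08). Pisd had 5892, 2529 and 4531 normalized counts in control and 4533, 3945 and 4988 in Bmal1;CKO, with the same high library 1 and low library 2 as Nfe2l2. For Hmox1 they were Zfp41 (0.22), Slc9a9 (0.26), Lpl (0.27), Adar (0.27) and Gla (0.28), and in all 5 control library 2 was the lowest. Among the members, the closest pairs were Gclc with Cat (0.26) and Sod1 with Sod2 (0.29). The root mean square variation of a gene about its own mean was 0.50 for Gclc, 0.39 for Cat, 0.34 for Sod1 and 0.21 for Sod2. The difference between Sod1 and Sod2 was thus larger than the variation of Sod2 itself.

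A further 81 genes of the pathway were followed in 4 lists, and 80 of them were tested. The LFC was above 0 for 39 and below 0 for 41, with a median of -0.02. For all genes tested the median was 0.11, with 56.6% above 0, and it was 0.002 without control library 1. None of the 80 passed an adjusted p of 0.05 in limma-trend, with 2 at an unadjusted p under 0.05, and none passed in edgeR with TMM scaling or in DESeq2, with 2 and 4 at an unadjusted p under 0.05. The background of unadjusted p-values under 0.05 was 3.17% of all genes higher and 1.75% lower in Bmal1;CKO, and the lists held 1 gene in each direction. Of the 80, 3 genes had all Bmal1;CKO libraries above control, against 6.62% of all genes, and 4 had all below, against 4.54%. The ARE core was found in 18 of 93 promoter windows of these genes (19.4%) and the E-box in 6 (6.45%).

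**Figure D5:**
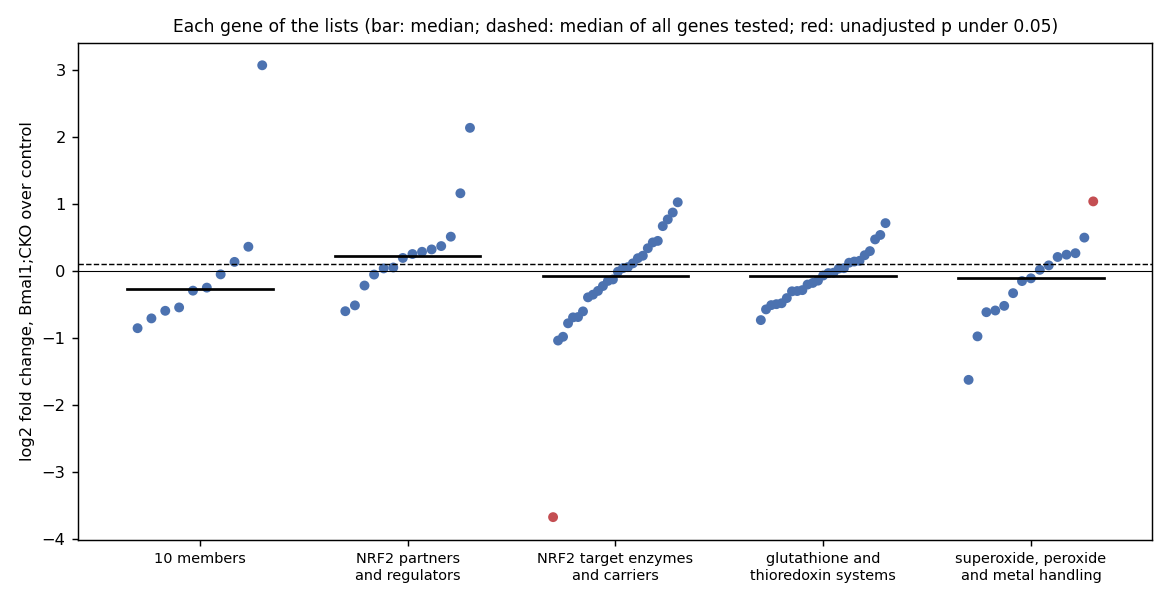
Log2 fold change of Bmal1;CKO over control for each of the 10 members and the 80 tested genes of 4 further lists, with the median of each list (bar) and of all genes tested (dashed line at 0.11). Genes lie on both sides of 0 in every list, and the red points mark an unadjusted p under 0.05, among them Gsta3 (-3.67). The median of all genes was 0.002 without control library 1 and -0.006 when at least 10 reads in every library were required.

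Of the 14 partners and regulators of NRF2, 10 had fold changes above 0, with a median of 0.22. Mafk, a small MAF partner of NRF2, had 719, 1063 and 2984 normalized counts in control and 4000, 2500 and 2531 in Bmal1;CKO. Control library 3 lay among the Bmal1;CKO libraries, and the LFC was 1.16 (SE 0.54, limma-trend adjusted p = 0.883). Cul3, the scaffold of the ligase that KEAP1 recruits, had 2944, 5443 and 3955 in control and 2165, 3159 and 2651 in Bmal1;CKO. Its LFC was -0.60, and the groups overlapped.

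Of 26 tested NRF2 target enzymes and carriers, 12 had fold changes above 0 and 14 below, with a median of -0.07. Gsta3, a glutathione S-transferase, had 171, 64.0 and 70.0 normalized counts in control and 0, 27.6 and 12.4 in Bmal1;CKO. All Bmal1;CKO libraries were below all controls, at low counts, with 0 reads in library 4. Between the groups the LFC was -3.67 (SE 1.45, unadjusted p = 0.0367, limma-trend adjusted p = 0.883) and -2.24 without Bmal1;CKO library 4, whose 0 makes the value depend on the pseudocount. Osgin1, an oxidative stress response gene, had 1648, 994 and 1450 in control and 3353, 1584 and 2731 in Bmal1;CKO, an LFC of 0.87 (unadjusted p = 0.0543, limma-trend adjusted p = 0.883) and an overlap through library 5. Me1, which makes NADPH, and the export pump Abcc1 were the other genes of this list with all Bmal1;CKO libraries below control, and Gstm1 had all above. These 3 were named after their values were seen. With their pseudogene copies added, the groups of Me1 overlapped and those of Gstm1 did not.

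Of 25 glutathione and thioredoxin genes, 10 had fold changes above 0 and 15 below, with a median of -0.07. Gpx4, which reduces lipid hydroperoxides, had 1928, 1764 and 1663 normalized counts in control and 2444, 3445 and 2047 in Bmal1;CKO, all above control (LFC 0.54, limma-trend adjusted p = 0.883). This separation ended when its pseudogene copies were added. The Gpx4 row was 0.730% to 2.08% of the sum, and the LFC of the sum was -0.16 (limma-trend adjusted p = 0.943) with overlapping groups. Prdx1, a cytosolic peroxiredoxin, had 23574, 15435 and 13495 in control and 16214, 9167 and 10000.7 in Bmal1;CKO. Its LFC was -0.57 alone and -0.66 with 2 copies added (limma-trend adjusted p = 0.883 for each), and the groups overlapped either way. Prdx3, the mitochondrial peroxiredoxin, had all Bmal1;CKO libraries below control, from 7364 to 9707 against 9864 to 10815, and was likewise named after its values were seen. In the 4 lists, 10 genes had a pseudogene copy, and in 8 of them the copies had a higher mean than the gene.

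Of 15 genes for superoxide, peroxide and metal handling, 7 had fold changes above 0 and 8 below, with a median of -0.11. Cp, encoding the copper-carrying ferroxidase ceruloplasmin, had 1072, 1655 and 1503 in control and 2236, 2122 and 1576 in Bmal1;CKO. Only library 6 fell among the controls, and the LFC was 0.50 (SE 0.32, limma-trend adjusted p = 0.883).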

How the data were processed

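RNA-seq was read from cells sorted as VECs from retinas of 3 control and 3 Bmal1;CKO samples. The authors used Trimmomatic, Bowtie on mm10 (GRCm38) and featureCounts, and deposited a signal per gene: its count after scaling by the size factor that DESeq2 gave the library. Whether counting used strand, and the version of Bowtie, are not given in the sources used here. Bowtie does not split a read across an intron, which may affect genes with several exons and genes with intronless copies. The table's columns of means, fold changes and p-values are the authors' own comparison and were not used. Columns carry the genotype but no replicate number of the labels, so each was used as a replicate of its genotype. The study gives 3 animals per group, and no column could be tied to 1 animal.

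Division by the smallest step of a column gave whole reads for 100% of values (tolerance 0.1 read), and size factors from 0.711 to 1.40. A gene was tested if 3 or more libraries held 10 or more of its reads, with limma-trend on log2(normalized count + 1) in R 4.3.3 with limma 3.58.1, with genotype as the only term and Benjamini-Hochberg adjustment over 20459 genes. Fold changes of low genes depend on the pseudocount. Ratios of members were compared with two-sided exact permutation tests. Alternatives were edgeR 4.0.16 with TMM or DESeq2 size factors, DESeq2 1.42.0 without shrinkage, pseudocounts of 0.5 and 10, log2 CPM (TMM, prior count 2), other filters (at least 1 read in total, or 10 in every library), each library left out, and lengths of the longest transcript. Added after seeing the data were sums with pseudogene copies (at least 95% identity over 200 bases) and principal transcript lengths. Counts of copies in the lists took those with at least 50% of the copy aligned. Where a library had 0 reads, up to 3 were taken as possible, which covers counting error only. Coordinates are from GENCODE M21, and promoters from RefSeq. The tests were also run on simulated data, with log2 changes larger than those of all members but Nqo1. That run does not show whether changes of the size seen in the other members would be found.

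Members, lists and markers were chosen with earlier results of these data known. Named were all 10 members and, of the 4 lists, genes at an unadjusted p under 0.05 and the 2 of smallest p in each list. A gene that this rule names is not reported here. The 5 genes most like Nfe2l2 and Hmox1 had a mean of at least 100 normalized counts. Marker lists for rods, Müller glia, astrocytes, pericytes, erythroid, amacrine and ganglion cells were also read. Of these markers 1 of 10, 8 of 8, 1 of 5, 0 of 7, 0 of 7 and 3 of 10 were higher on average in Bmal1;CKO, in that order, with amacrine and ganglion cells as 1 list.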

Additional observations from a re-analysis of the deposited data

How the results depend on the processing

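The count of genes at an adjusted p under 0.05, 0 of 20459, became 67 in DESeq2, 1 when all genes with at least 1 read in total were tested, and 1 when 10 reads in every library were required, and ran from 0 to 6 (without control library 1) when 1 library was left out. No member and no gene of the 4 lists passed in any of these. Of the members, 7 kept their direction in every alternative run, 15 each and 14 for Nqo1, which was not tested when 10 reads in every library were required. The other 3 turned when 1 library was left out, where the log2 fold change ran from -0.21 to 0.43 for Nfe2l2, from -1.03 to 0.21 for Hmox1 and from -0.16 to 0.094 for Sod2, whose value was also above 0, at 0.09, when control library 1 was omitted. The log2 ratio of Keap1 over Nfe2l2 ran from -0.12 to 0.40 and that of Gclm over Gclc from -0.49 to 0.24, so neither direction held, and that of Sod2 over Sod1 from 0.08 to 0.42. The last ratio used the Sod1 row without Gm8566. The causes were not tested. No paired analysis was possible because the columns of the table carry no replicate number of the labels. Low counts limit Nqo1 and Gsta3.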
